A study of Mus musculus with 22 samples.

Results

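Trh, Manba, Shtn1, Kcns3 and Mymx are 5 autosomal, protein-coding mouse genes whose transcripts were lower in Hox-/- cells than in wild type in mouse embryonic stem (mES) cells, in endoderm cultures, and in Activin A gastruloids at 96 h and at 120 h. They were picked for these 4 differences, so the differences are described here without a test. All 5 were found among the 55055 genes that every deposited count table holds, and all 5 passed the filter on low counts in every comparison. The labels give the mutant genotype as Hox-/- and the series describes its embryo models as without any Hox function.

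The data were RNA-seq counts from 22 libraries in 10 groups, with 3 libraries in each endoderm group and 2 in each other group. Wild-type and Hox-/- mES cells were kept with LIF at 100 ng/ml, the GSK-3 inhibitor CHIR99021 at 3 µM and the MEK inhibitor PD0325901 at 1 µM. Wild-type and Hox-/- endoderm cultures grew in a plate, received Activin A at 100 ng/ml with CHIR99021 at 3 µM at 24 h and again at 72 h, and were collected at 120 h. Gastruloids are stem-cell aggregates that model parts of the early embryo. Those grown with Activin A were sequenced from both genotypes at 96 h and 120 h, and those labelled Chiron from wild type alone at the same times, and their doses are not among the labels used here. Endoderm cultures and gastruloids are labelled as mixed cells.

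Trh encodes the precursor of thyrotropin-releasing hormone, a tripeptide cut from repeated segments of the precursor and best known for its release from hypothalamic neurons to the pituitary. The other genes have unrelated roles. Manba encodes lysosomal beta-mannosidase, which removes the last mannose in the breakdown of N-linked glycans. Shtn1 encodes shootin1, a clutch protein that couples actin flow to the adhesion molecule L1cam in growing axons. Kcns3 encodes Kv9.3, a potassium channel subunit that forms no channel alone and modifies the channels it makes with Kv2 subunits. Mymx encodes myomixer, a very small membrane protein that drives myoblast fusion together with myomaker (Mymk).

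Library totals ran from 9.11 to 28.8 M counts (M, mega), and the gastruloid libraries of 120 h were shallower than those of 96 h. The 39 Hox genes together took at most 1.34 CPM (a gene's counts divided by the library total in M) in Hox-/- mES cells, 28.6 in Hox-/- endoderm cultures and 103.8 in Hox-/- gastruloids. In wild type they took at least 30.4, 828.5 and 624.8 CPM in the same cultures. The sum of 4 Y-linked genes also set the genotypes apart, at 0.345 CPM or less in every Hox-/- library and 98.8 CPM or more in every wild-type library. Since the number of clones per genotype is not among the labels, an effect of the cell line and one of the genotype cannot be told apart. Nor do the labels state that replicates came from separate cultures, so p-values measure only the spread between these libraries, which may be technical. In these bulk samples, fewer cells of a type and less RNA per cell cannot be told apart.

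The genes lie on 5 chromosomes (build mm10). Trh (ENSMUSG00000005892) is at chromosome 6, 92242061 to 92244650, minus strand, and no annotated gene overlaps it. Manba (ENSMUSG00000028164) is at chromosome 3, 135485611 to 135571404, plus strand, with 2 processed pseudogenes inside it that share no exon with it. Shtn1 (ENSMUSG00000041362) is at chromosome 19, 58973356 to 59076100, minus strand, without an overlapping gene. Kcns3 (ENSMUSG00000043673) is at chromosome 12, 11090202 to 11151056, minus strand, with 1 processed pseudogene inside it that shares no exon with it. Mymx (ENSMUSG00000079471) is at chromosome 17, 45600971 to 45602102, minus strand, and no annotated gene overlaps it.

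The RefSeq promoter table (GRCm38.p6) held entries for Trh, Manba and Kcns3. The 250 bases upstream of the Trh start site (chr6:92244651-92244900, minus strand) and of the Manba start site (chr3:135485361-135485610, plus strand) are shown, 5′ to 3′, because these 2 of the 5 genes ranked highest by the smallest of their falls in Hox-/- cells. Capitals mark TATAA and TGACCT, which were chosen after the sequences were seen.
Trh: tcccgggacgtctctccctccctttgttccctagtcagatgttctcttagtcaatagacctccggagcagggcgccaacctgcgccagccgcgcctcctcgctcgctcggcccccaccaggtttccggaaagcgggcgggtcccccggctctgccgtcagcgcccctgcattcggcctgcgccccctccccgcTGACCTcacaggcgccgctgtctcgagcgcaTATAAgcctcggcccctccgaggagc
Manba: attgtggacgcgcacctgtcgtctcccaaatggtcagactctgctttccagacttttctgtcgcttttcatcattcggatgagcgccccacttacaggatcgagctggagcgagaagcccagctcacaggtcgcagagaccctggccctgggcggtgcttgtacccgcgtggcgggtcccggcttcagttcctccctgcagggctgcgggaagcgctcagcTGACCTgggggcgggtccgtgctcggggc
Searched on both strands, TATAA occurred in the Trh sequence at position -26 and TGACCT at -57, positions being those of the first base, counted back from -1 at the last base before the start site. TGACCT also occurred at -29 of Manba. Of all 32851 upstream sequences of this length in the table, 22.8% held TATAA and 14% held TGACCT. The homeodomain core TAAT, the posterior Hox and Cdx motif TTTAT and the Hox-Pbx motif TGATNNAT were searched too, and neither sequence held them, against 54.9%, 37.3% and 7.68% of all upstream sequences. TGATNNAT can contain TAAT, and TTTAT and TATAA can share bases. Of the 2 Kcns3 start sites, whose upstream windows reach into the annotated gene and are not shown, 1 held TAAT, at -243, and neither held another of these 5 motifs. GC content was 68.8% for Trh, 63.6% for Manba, and 47.2% and 72.8% for the Kcns3 windows.

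The plot of CPM by library shows the levels of all 5 genes. Across the 10 groups Trh ranged from 30.8 CPM in Hox-/- endoderm cultures to 936.5 CPM in wild-type Activin A gastruloids at 120 h. On the authors' FPKM scale, which takes transcript length into account, Trh was also the highest of the 5 genes in every group, from 22.1 FPKM in Hox-/- endoderm to 637.3 FPKM in those gastruloids. Shtn1 was the lowest of the 5 in wild-type mES cells by FPKM, at 0.773, where Mymx was at 43.7 and Manba at 19.2.

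**Figure D1:**
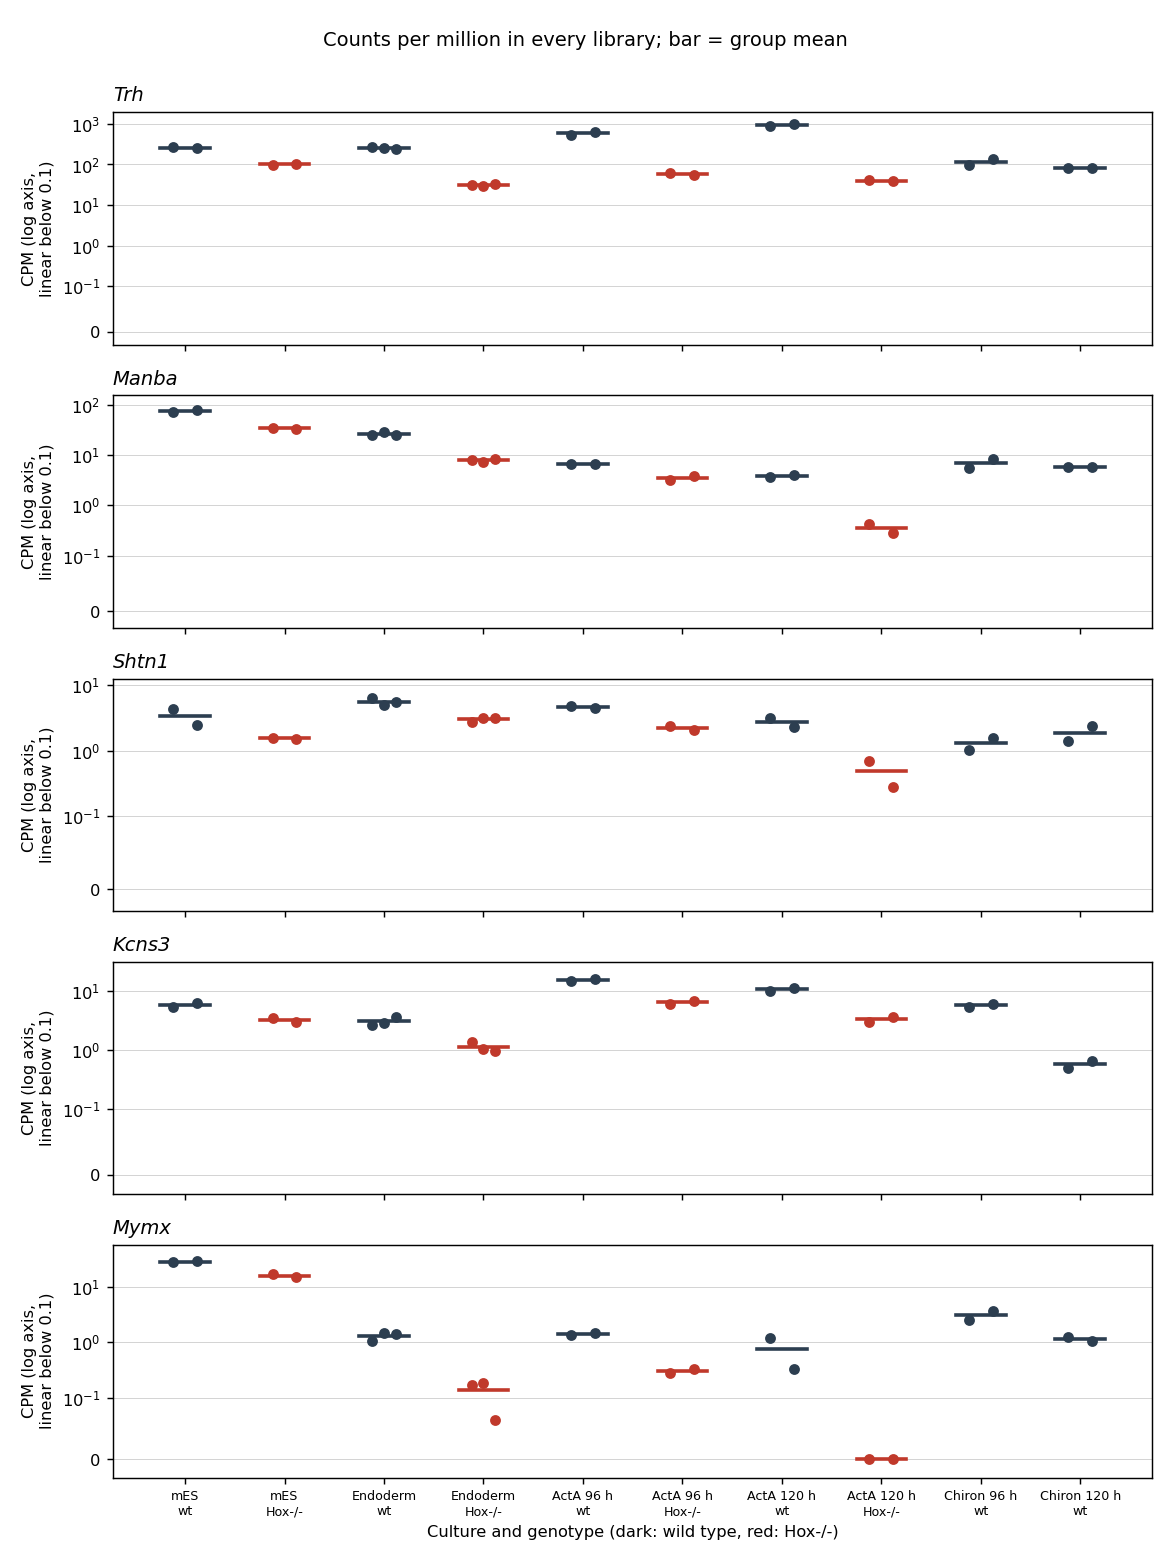
CPM (counts per M of the library total) in each of the 22 libraries, 1 panel per gene, with the 10 groups on the x axis, a bar at each group mean, and a y axis that is logarithmic above 0.1 and linear below. Hox-/- libraries (red) lie below the wild-type libraries (dark) of the same culture and time in every panel, and Mymx is at 0 in both Hox-/- libraries of 120 h.

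Trh, the hormone precursor, was lower in Hox-/- cells in each of the 4 cultures, and its share of the wild-type level was smallest in gastruloids at 120 h. In mES cells wild-type libraries held 263.4 and 247.9 CPM of Trh, and Hox-/- libraries 99.1 and 103.4 CPM. In endoderm cultures wild type held 264.5, 257.9 and 245.9 CPM, against 30.6, 29.6 and 32.3 CPM in Hox-/-. Wild-type values in these cultures overlapped, while both Hox-/- groups lay far below them. In gastruloids of 96 h the wild-type values were 532.6 and 637.5 CPM, and the Hox-/- values 61.4 and 55.6 CPM. At 120 h they were 906.6 and 966.4 CPM, against 41 and 38.5 CPM. Genotypes did not overlap at either time, and wild type was higher at 120 h than at 96 h while Hox-/- was lower. The Hox-/- mean was 39.6% of wild type in mES cells, 12% in endoderm, 10% in gastruloids of 96 h and 4.25% at 120 h. On the log2 scale of the count fit these differences were -1.34 (SE 0.0517), -3.04 (SE 0.0557), -3.26 (SE 0.0571) and -4.44 (SE 0.0655).

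Manba, the lysosomal mannosidase, was highest in wild-type mES cells at 73.8 and 77.5 CPM, and Hox-/- mES cells held 34.4 and 33.6 CPM. Wild-type endoderm cultures held 25.6, 29.2 and 24.7 CPM, and Hox-/- ones 7.84, 7.38 and 8.32 CPM. Both cultures showed separate ranges, at 45% and 29.6% of wild type. In gastruloids of 96 h wild type held 6.53 and 6.63 CPM and Hox-/- 3.18 and 3.81 CPM. At 120 h wild type held 3.68 and 3.95 CPM and Hox-/- 0.431 and 0.281 CPM, which were 5 and 3 counts. The Hox-/- mean was 53.1% of wild type at 96 h and 9.33% at 120 h, and the latter rests on these few counts. The log2 differences were -1.15 (SE 0.0697) in mES cells, -1.75 (SE 0.0971) in endoderm, -0.88 (SE 0.164) at 96 h and -3.27 (SE 0.411) at 120 h.

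Shtn1, the axonal clutch gene, stayed under 7 CPM in every library. In mES cells wild type held 4.25 and 2.49 CPM and Hox-/- 1.57 and 1.51 CPM. In endoderm cultures wild type held 6.25, 4.88 and 5.47 CPM and Hox-/- 2.73, 3.14 and 3.15 CPM. The genotypes did not overlap, although the 2 wild-type mES libraries differed from each other by more than the lower of them differed from Hox-/-. In gastruloids wild type held 4.71 and 4.42 CPM at 96 h against 2.38 and 2.07 CPM in Hox-/-. At 120 h wild type held 3.13 and 2.31 CPM against 0.69 and 0.281 CPM, which were 8 and 3 counts. The Hox-/- share of wild type was 45.7% in mES cells, 54.3% in endoderm, 48.8% at 96 h and 17.8% at 120 h. At 120 h it was 10.3% when Hox-/- replicate 1 was left out and 25.4% when replicate 2 was. The log2 differences were -1.15 (SE 0.294), -0.87 (SE 0.165), -0.96 (SE 0.201) and -2.34 (SE 0.429) in the same order.

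Kcns3, the silent channel subunit, was highest in wild-type Activin A gastruloids, at 14.8 and 15.5 CPM at 96 h and 9.94 and 11.1 CPM at 120 h. Hox-/- gastruloids held 5.98 and 6.82 CPM at 96 h and 2.93 and 3.65 CPM at 120 h. The genotypes were thus apart at both times, with Hox-/- at 42.3% and 31.3% of wild type. Wild-type mES cells held 5.31 and 6.14 CPM of Kcns3, and Hox-/- mES cells 3.51 and 2.94 CPM. In endoderm cultures wild type held 2.68, 2.9 and 3.57 CPM, against 1.36, 1.05 and 0.945 CPM in Hox-/-. Hox-/- was at 56.3% of wild type in the former and 36.6% in the latter. The log2 differences were -0.82 (SE 0.205) in mES cells, -1.43 (SE 0.241) in endoderm, -1.20 (SE 0.115) at 96 h and -1.57 (SE 0.191) at 120 h, the narrowest range among the 5 genes.

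Mymx, the myoblast fusion gene, was highest in mES cells, at 27.6 and 28.8 CPM in wild-type mES cells, against 17.1 and 15 CPM in the mutant. Hox-/- mES cells held 57% of the wild-type level, a log2 difference of -0.81 (SE 0.0991). In endoderm cultures wild type held 1.05, 1.45 and 1.39 CPM and Hox-/- 0.17, 0.185 and 0.063 CPM, which were 3, 3 and 1 counts. Wild type was 9.31-fold higher there, with a 95% counting interval of 4.22 to 24.3 from 54 and 7 counts. In gastruloids of 96 h wild type held 1.38 and 1.47 CPM and Hox-/- 0.281 and 0.334 CPM, which were 6 and 5 counts, a log2 difference of -2.16 (SE 0.435). At 120 h wild type held 1.19 and 0.329 CPM, 11 and 3 counts, and neither Hox-/- library held a count. The ranges were apart in all 4 cultures, but the second wild-type library of 120 h lay at the floor of 3 counts. Hox-/- was at least 2.82-fold lower at 120 h, taking a floor of 3 counts in each library. Without wild-type replicate 1, both genotypes are at or under the floor and no fold can be given. Intervals and floors cover counting error only.

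The plot of genotype differences sets these values side by side. Because the genes were chosen from these contrasts, their calls carry no weight, and the background is given only for scale. By edgeR's quasi-likelihood test 10.8% of tested genes were lower in Hox-/- mES cells, 23.1% in Hox-/- endoderm cultures, 16.7% in Hox-/- gastruloids of 96 h and 25.5% in those of 120 h. Every Hox-/- library lay below every wild-type library for 29.4%, 28.2%, 37% and 47% of tested genes in the same order, and for all 5 genes in each.

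Fits of limma to log2(FPKM + 1), a scale that understates changes of genes with low values, kept all directions and moved the sizes of the low genes. They gave Shtn1 differences of -0.38 in mES cells, -0.43 in endoderm, -0.44 at 96 h and -0.53 at 120 h. Manba was at -0.79 at 120 h and -0.47 at 96 h, and Kcns3 at -0.49 in mES cells and -0.63 in endoderm. Mymx was at -1.33 in endoderm, -1.18 at 96 h and -1.07 at 120 h, while Trh, the gene with the highest levels, was at -1.35, -3.02, -3.33 and -4.45 in the 4 cultures.

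**Figure D2:**
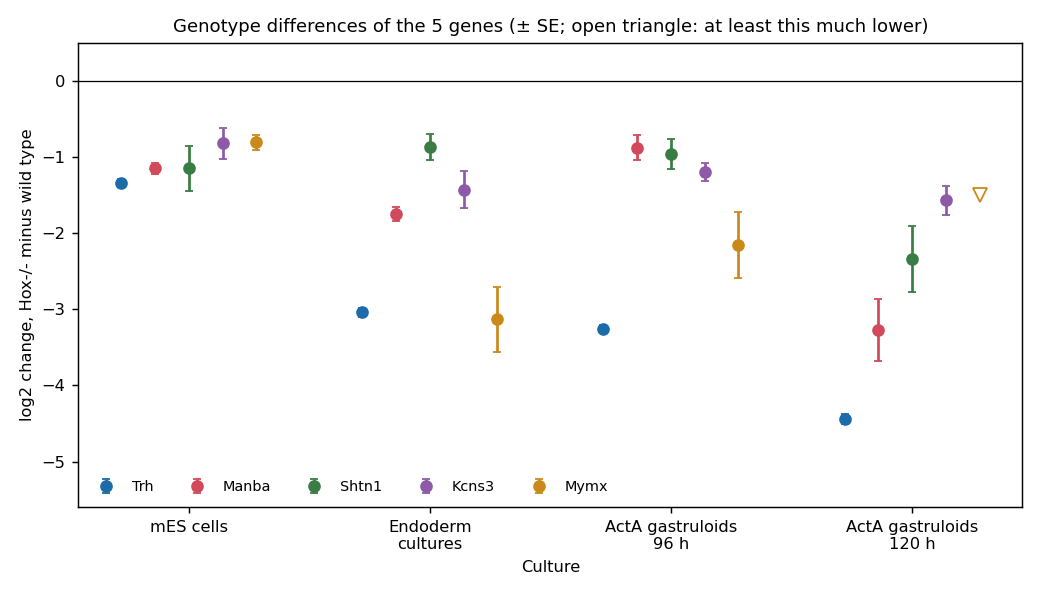
Log2 difference between Hox-/- and wild type (y axis) of the 5 genes in the 4 cultures (x axis), with bars of 1 standard error from the edgeR fit. All points lie below 0, Trh is the lowest in mES cells, at 96 h and at 120 h, and the open triangle gives the least fall of Mymx at 120 h, where its Hox-/- libraries held no count; the endoderm point of Mymx rests on 7 Hox-/- counts.

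Of 12071 autosomal genes outside the Hox genes that were tested in all 4 contrasts, 132 (1.09%) were called lower in Hox-/- in each. Ranked by the smallest of a gene's 4 falls, Trh, Manba, Shtn1, Kcns3 and Mymx were in places 2, 3, 4, 5 and 7. Gm53, which lies in the Hoxb cluster, was first, with a smallest fall of -1.94 on the log2 scale. The members nearest the end of the selection and the genes just outside it had nearly the same values. Mymx had a smallest fall of -0.81, as had Eomes, a T-box factor of mesoderm and endoderm formation, in place 6 and Myl7, an atrial myosin light chain, in place 8. Their largest Hox-/- shares of wild type were 57%, 56.8% and 56.2%. Tgfbr3 (-0.72), a TGF-beta co-receptor, and Gpx2 (-0.71), a glutathione peroxidase of epithelia, followed. DESeq2 called 36 genes lower in all 4, each of them among the 132, and these held Trh, Manba and Mymx but not Shtn1 and Kcns3.

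Markers of cell types moved between genotypes in the same cultures. For scale, 10.8% of all tested genes were called lower and 12.4% higher in Hox-/- mES cells, and 23.1% and 23.1% in endoderm. In gastruloids these shares were 16.7% and 22.2% at 96 h and 25.5% and 24.9% at 120 h. The 12 endoderm markers summed to 1011 to 1025 CPM in wild-type and 581.2 to 632.4 CPM in Hox-/- endoderm cultures, none was at the floor in either, and all 12 were called lower. In gastruloids they summed to 885.5 to 1005 CPM against 302.7 to 305.9 CPM at 96 h and 1039 to 1043 CPM against 205.0 to 211.9 CPM at 120 h, with 11 and 10 of the 12 called lower. The 8 pluripotency markers summed to 268.2 to 282.9 CPM in Hox-/- against 855.0 to 991.4 CPM in wild-type endoderm, with all 8 called lower, and in gastruloids 6 were lower and 1 higher at each time. Of the 12 caudal progenitor and presomitic markers, 9 were called higher and 2 lower in Hox-/- gastruloids of 120 h, where their sums were 1411 to 1415 CPM against 817.3 to 826.3 CPM. At 96 h 8 were higher and 2 lower, in endoderm 5 and 5 of 10 tested, and in mES cells all 3 tested were lower. In mES cells the pluripotency sums were 6306 to 6340 CPM for wild type against 6118 to 6178 CPM in the mutant, and 3 of the 8 markers were called lower and 1 higher. Of 6 germ cell markers, 4 were higher in Hox-/- mES cells and 4 lower in Hox-/- endoderm. Of the extraembryonic endoderm markers, 4 of 6 tested were lower and 1 higher in endoderm, and 5 of 8 lower and 2 higher at 120 h. At 96 h 1 of 8 was lower and 1 higher. Their sums were 825.5 to 836.1 CPM in wild-type and 737.0 to 753.7 CPM in Hox-/- endoderm. At 120 h the sums went the other way, with 204.3 to 205.1 CPM in wild type and 214.1 to 221.0 CPM in Hox-/-. Of 8 neural markers, 4 rose and 1 fell in Hox-/- gastruloids of 96 h, while at 120 h 5 fell and 1 rose. Of the endothelial and blood markers, 2 of 4 tested were lower in endoderm and 3 of 5 higher at 120 h. The part of these shifts in the values of the 5 genes was not tested. For Mymx, the 8 skeletal muscle markers summed to between 1.64 and 22.4 CPM in every library, and Myog, the myogenin gene that defines differentiating muscle, was at the floor in all 10 groups.

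Activin A and Chiron gastruloids of wild type were compared next, a contrast between treatments that the choice of genes did not use, although its Activin A libraries also stood in that choice. Trh was several-fold higher with Activin A at both times, Kcns3 likewise, and Shtn1 at 96 h. Mymx was lower with Activin A at 96 h. Of the 5 genes, edgeR called 3 higher and 1 lower at 96 h, against 31.3% and 30.2% of all tested genes. At 120 h it called 2 higher and 1 lower, against 20.3% and 21.6%.

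Trh held 95.9 and 133.8 CPM in Chiron gastruloids of 96 h and 81.9 and 82.3 CPM at 120 h. All 4 values were below every Activin A value of wild type and above every Hox-/- gastruloid value. Trh was 5.09-fold higher with Activin A than with Chiron at 96 h (log2 2.28, SE 0.0935, adjusted p 3.86e-16) and 11.4-fold higher at 120 h (log2 3.46, SE 0.104, adjusted p 5.94e-18). Kcns3 held 5.3 and 6 CPM in Chiron gastruloids of 96 h and 0.503 and 0.636 CPM, 6 counts in each library, at 120 h. It was the one gene of the 5 with a lower mean in Chiron gastruloids of 120 h than in Hox-/- Activin A gastruloids of that time. With Activin A it was 2.68-fold higher at 96 h (log2 1.35, SE 0.115, adjusted p 4.96e-10) and 18.5-fold higher at 120 h (log2 4.16, SE 0.277, adjusted p 1.64e-11).

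Shtn1 held 1.02 and 1.56 CPM in Chiron gastruloids of 96 h, below both Activin A libraries, and was 3.53-fold higher with Activin A (log2 1.71, SE 0.224, adjusted p 5.89e-07). At 120 h it held 1.42 and 2.33 CPM, which overlapped the Activin A values, and the difference was not called (log2 0.52, 95% interval -0.13 to 1.17, adjusted p 0.226). Mymx held 2.53 and 3.64 CPM in Chiron gastruloids of 96 h and was lower with Activin A (log2 -1.20, SE 0.253, adjusted p 0.000272), a call that limma on log2(FPKM + 1) did not make (adjusted p 0.168). At 120 h Mymx held 1.26 and 1.06 CPM with Chiron and was not called (log2 -0.66, 95% interval -1.69 to 0.36, adjusted p 0.333). Manba held 5.45 and 8.22 CPM with Chiron at 96 h, on both sides of the Activin A values, and was not called (log2 -0.15, 95% interval -0.45 to 0.15, adjusted p 0.417), but was called lower with Activin A without Chiron replicate 1 (adjusted p 0.0286). At 120 h it held 5.78 and 5.73 CPM with Chiron and was called lower with Activin A (log2 -0.65, SE 0.247, adjusted p 0.0388). This call was lost without any 1 of the 4 libraries compared (adjusted p 0.0948 to 0.165) and under DESeq2 (adjusted p 0.0913).

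Whether the treatment difference changed with time was tested as an interaction, which was added after these values were seen. Its Activin A libraries also stood in the choice of the genes. The Activin A difference was larger at 120 h than at 96 h for Trh (by 1.18 on the log2 scale, SE 0.136, adjusted p 2.4e-07) and for Kcns3 (by 2.81, SE 0.337, adjusted p 4.3e-07). For Shtn1 it was smaller (-1.19, SE 0.411, adjusted p 0.0242), a call that DESeq2 (adjusted p 0.0833) and limma on log2(FPKM + 1) and log2(FPKM + 0.1) did not make (adjusted p 0.074 and 0.131). It was also lost without Activin A replicate 2 of 120 h, Chiron replicate 2 of 120 h or Chiron replicate 1 of 96 h (adjusted p 0.104, 0.219 and 0.0538). Manba (-0.50, adjusted p 0.184) and Mymx (0.54, adjusted p 0.515) were not called. Without Chiron replicate 2 of 96 h, Manba was called (-0.87, adjusted p 0.00819). Of all tested genes, 21.7% had a positive and 18% a negative interaction.

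**Figure D3:**
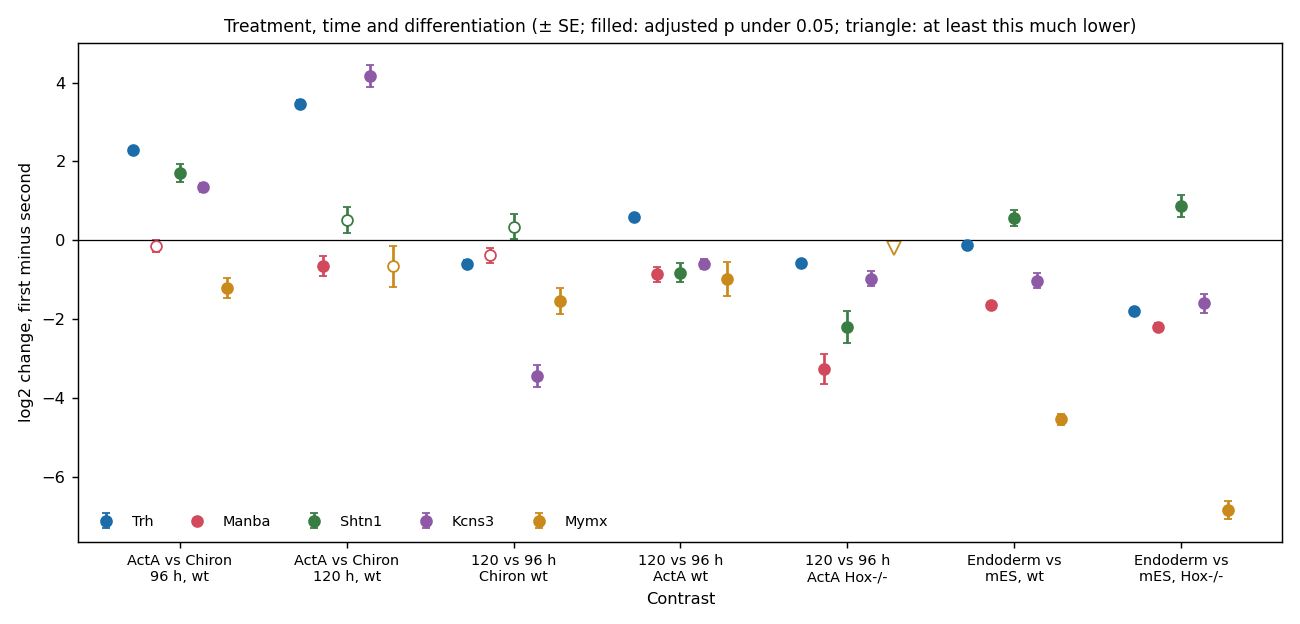
Log2 differences (y axis) of the 5 genes in 7 comparisons of treatment, time and differentiation (x axis), with bars of 1 standard error; filled points had an edgeR adjusted p under 0.05 and the triangle is a least fall. Trh and Kcns3 lie above 0 with Activin A at both times, and Mymx has the lowest points in both comparisons of endoderm with mES cells, of which the Hox-/- one rests on 7 endoderm counts.

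Time was compared within each kind of gastruloid, and the depth of the libraries went with time. In Chiron gastruloids, none of whose libraries stood in the choice of genes, edgeR called 3 of the 5 genes lower at 120 h than at 96 h, against 33.2% of all tested genes, with 28.5% called higher. Kcns3 fell by 3.43 on the log2 scale (SE 0.281, adjusted p 2.84e-10), Mymx fell by 1.53 (SE 0.329, adjusted p 0.000324) and Trh fell by 0.60 (SE 0.105, adjusted p 3.01e-05). The ranges of these 3 genes at 96 h and 120 h did not overlap. The fits to log2(FPKM + 1) and log2(FPKM + 0.1) kept Kcns3 alone, with Trh at adjusted p 0.0549 and 0.0545 and Mymx at 0.148 and 0.251. Manba was not called (log2 -0.38, 95% interval -0.75 to -0.02, adjusted p 0.0782) but was without Chiron replicate 1 of 96 h (adjusted p 0.00235). Shtn1 was not called either (log2 0.35, 95% interval -0.27 to 0.98, adjusted p 0.346).

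In wild-type Activin A gastruloids Trh rose by 0.60 on the log2 scale from 96 h to 120 h (SE 0.0469, adjusted p 3.52e-16), and the other 4 genes fell, where 37.2% of all tested genes were called higher and 37.8% lower. Manba fell by 0.86 (SE 0.193, adjusted p 9.81e-05), Kcns3 fell by 0.60 (SE 0.123, adjusted p 2.47e-05), Shtn1 fell by 0.82 (SE 0.234, adjusted p 0.00173) and Mymx fell by 0.97 (SE 0.431, adjusted p 0.0392). Without replicate 2 of 120 h the calls of Shtn1 (adjusted p 0.0651) and Mymx (log2 -0.33, adjusted p 0.575) were lost. The Mymx call was also lost without either library of 96 h (log2 -1.02 and -0.93) and under DESeq2 (adjusted p 0.216). Limma on log2(FPKM + 1) and log2(FPKM + 0.1) did not call Mymx either (adjusted p 0.154 and 0.174). The log2(FPKM + 0.1) fit lost Shtn1 too (adjusted p 0.0727).

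In Hox-/- Activin A gastruloids all 5 genes fell from 96 h to 120 h, where 37.6% of all tested genes were called lower and 34.9% higher. Trh fell by 0.58 on the log2 scale (SE 0.0799, adjusted p 1.07e-08). Manba fell by 3.25 (SE 0.38, adjusted p 1.44e-10), Shtn1 fell by 2.19 (SE 0.4, adjusted p 3.96e-06) and Kcns3 fell by 0.97 (SE 0.189, adjusted p 1.21e-05). Mymx went from 11 counts in the libraries of 96 h to none and was at least 1.14-fold lower (adjusted p 0.00544). The Mymx call was lost under limma on log2(FPKM + 1) (log2 -0.54, adjusted p 0.231) and without Hox-/- replicate 1 of 120 h. The libraries of both genotypes also stood in the choice of the genes, and the difference between the time courses, which is made of the contrasts used there, was not tested.

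Endoderm cultures and mES cells stand in separate tables, so culture and table cannot be told apart in the comparison between them. In wild type, edgeR called 4 of the 5 genes lower in endoderm and 1 higher, against 38.3% and 41.6% of all tested genes. Mymx was 21.7-fold lower (log2 -4.54, SE 0.148, adjusted p 2.28e-16), Manba 2.86-fold lower (log2 -1.63, SE 0.073, adjusted p 3.88e-14) and Kcns3 1.88-fold lower (log2 -1.02, SE 0.194, adjusted p 7.92e-05). Shtn1 was higher in endoderm (log2 0.57, SE 0.209, adjusted p 0.0181), a call lost without mES replicate 2 (log2 0.24, adjusted p 0.337), without endoderm replicate 1 (adjusted p 0.06) and under DESeq2 (adjusted p 0.0619). Trh hardly differed, with means of 256.1 CPM in endoderm and 255.7 CPM in mES cells whose ranges overlapped. The fit, which rescales library totals, placed it at log2 -0.12 (SE 0.0516, adjusted p 0.0456), and the call was lost with the replicate number as a block (adjusted p 0.0683) and without any 1 of 6 libraries (adjusted p 0.0552 to 0.456).

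In Hox-/- cells edgeR likewise called 4 of the 5 genes lower in endoderm than in mES cells and Shtn1 higher, against 37.9% and 42.7% of all tested genes. Trh was 3.28-fold lower (log2 -1.80, SE 0.0615, adjusted p 3.84e-16), Manba 4.34-fold lower (log2 -2.20, SE 0.0932, adjusted p 1.34e-14) and Kcns3 2.89-fold lower (log2 -1.60, SE 0.252, adjusted p 8.06e-06). Mymx was 114.6-fold lower, with a 95% counting interval of 55.1 to 286.9 from 408 and 7 counts. Shtn1 was higher (log2 0.87, SE 0.274, adjusted p 0.00659). The libraries of both comparisons stood in the choice of the genes.

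Ordered by mean CPM over the 10 groups, the genes differed in where they were high. Trh ran from wild-type Activin A gastruloids (120 h, then 96 h) through wild-type endoderm and mES cells to Chiron gastruloids of 96 h, Hox-/- mES cells and Chiron gastruloids of 120 h, with the 3 differentiated Hox-/- groups last. Its neighbouring groups overlapped only between wild-type endoderm and mES cells and between Chiron gastruloids of 96 h and Hox-/- mES cells. Manba and Mymx were highest in both kinds of mES cells, in separate ranges. Manba overlapped between Hox-/- endoderm and Chiron gastruloids of 96 h, between the latter and wild-type Activin A gastruloids of 96 h, and between wild-type Activin A gastruloids of 120 h and Hox-/- ones of 96 h. Mymx was next highest in Chiron gastruloids of 96 h, and the following groups, from wild-type Activin A gastruloids of 96 h to Hox-/- ones of 96 h, each overlapped the next. Shtn1 was highest in wild-type endoderm cultures and then in wild-type Activin A gastruloids of 96 h, and from wild-type mES cells to Chiron gastruloids of 96 h each group overlapped the next. Kcns3 had overlaps between Hox-/- gastruloids of 96 h, wild-type mES cells and Chiron gastruloids of 96 h, and between Hox-/- gastruloids of 120 h, Hox-/- mES cells and wild-type endoderm.

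As a description over the 10 group means, which share libraries' depth and culture, the log2(CPM + 1) levels of Manba and Mymx had a Pearson r of 0.84, and those of Trh and Kcns3 an r of 0.71. Trh and Shtn1 had an r of 0.57, Manba and Shtn1 of 0.53, and the other pairs lay between -0.03 and 0.28. All groups but the Chiron ones stood in the choice of the 5 genes as lower in Hox-/-, so positive r values are partly built in. Low Hox-/- values in genes picked for likeness to them are partly built in too. Among 12789 genes searched, the pattern of Trh was most like those of Thpo (r 0.92), the thrombopoietin gene, St6galnac2 (0.88) and Pcbd1 (0.86). In Activin A gastruloids of 120 h Thpo was at 13.1 CPM with the wild-type and 0.981 CPM with the Hox-/- genotype. In mES cells Thpo was at 4.66 and 4.92 CPM in the same order, so it was not lower there in Hox-/-. For Shtn1 the similar genes were Ap1m2 (0.94), an adaptor subunit of epithelial cells, and Usp43 (0.90). Wild-type and Hox-/- values of Ap1m2 were 12.9 and 0.442 CPM in those gastruloids and 9.88 and 6.19 CPM in mES cells. For Kcns3 they were Arhgap27 (0.91) and Arhgap45 (0.89). For Manba they were Sdr39u1 (0.98), Noct (0.98) and Mtarc2 (0.97), and for Mymx Atp11b, 1700097N02Rik and Mynn (0.99 each), all highest in wild-type or Hox-/- mES cells. With log2(CPM + 0.1) in its place, 2 of the 3 genes were shared for Trh, Shtn1 and Kcns3, 1 for Manba and 0 for Mymx.

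Neighbouring genes were compared between genotypes by taking the 2 nearest tested genes on each side of each member, 20 in all. None was called lower in all 4 cultures, and since only 1.09% of the autosomal genes tested in all 4 were, a count of 0 among 20 says little. Of the 20, edgeR called 3 lower and 1 higher in mES cells, 4 and 5 in endoderm, 7 and 3 in gastruloids of 96 h, and 7 and 6 at 120 h. Of all tested genes, 10.8% and 12.4% were called lower and higher in mES cells, 23.1% and 23.1% in endoderm, 16.7% and 22.2% at 96 h, and 25.5% and 24.9% at 120 h. Slc29a1, the nucleoside transporter gene 1.36 kb from Mymx, was close to wild type in mES cells (log2 -0.01, adjusted p 0.93) and lower in Hox-/- endoderm (log2 -1.46, adjusted p 3.09e-10), gastruloids of 96 h (-0.83, adjusted p 3.31e-19) and gastruloids of 120 h (-1.24, adjusted p 1.13e-16). Adamts9, an extracellular protease gene 528.0 kb from Trh, was also lower in these 3 (log2 -0.75, -2.66 and -1.14), and in mES cells it was not called (0.10, adjusted p 0.409). Prickle2, a planar polarity gene 126.3 kb from Trh, was higher in Hox-/- mES cells (0.30, adjusted p 0.0112) and lower in endoderm (-0.23, adjusted p 0.0463) and in gastruloids of 96 h and 120 h (-1.30 and -1.26). On the other side of Trh, Rbsn was not called in mES cells and endoderm (-0.12 and -0.07), was lower at 96 h (-0.19) and higher at 120 h (0.21). Nfkb1, 13.3 kb from Manba, was lower in Hox-/- mES cells (-0.33), at 96 h (-0.36) and at 120 h (-0.40) and higher in endoderm (0.28). The next tested gene on that side, Ppp3ca, 1099 kb away (0.49, 0.53 and 0.64), was higher in Hox-/- endoderm, gastruloids of 96 h and gastruloids of 120 h, and Smc6 beside Kcns3 (0.48 and 0.83) in gastruloids of 96 h and 120 h.

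**Figure D4:**
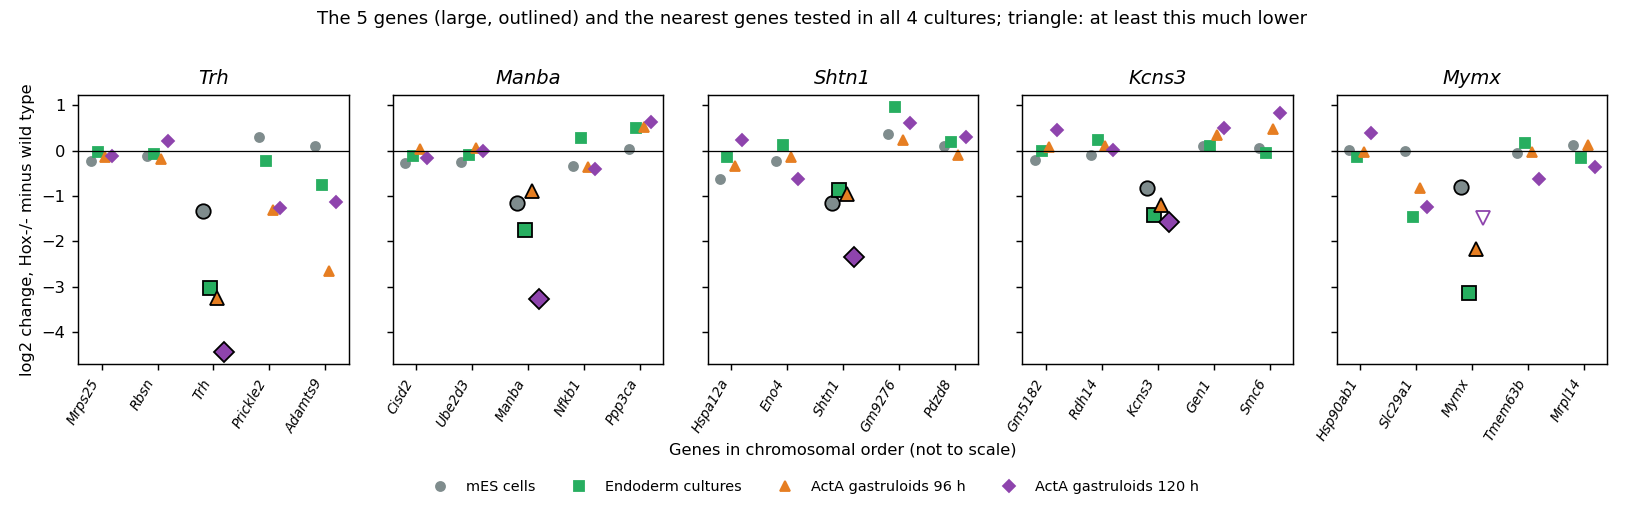
Log2 difference between Hox-/- and wild type (y axis) in 4 cultures for each member (large outlined symbols) and the 2 nearest tested genes on each side in chromosomal order (x axis, not to scale). The members lie below 0 in all 4 cultures, for which they were chosen, and the neighbours lie on both sides of 0; the open triangle is the least fall of Mymx at 120 h.

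Other genes of the members' pathways were read from 5 lists of 85 genes in all, without the members, which had been compiled with earlier results of these data known. Of those tested, edgeR called 8 lower and 8 higher in Hox-/- mES cells of 55 tested, 18 and 17 in endoderm of 60, 14 and 15 in gastruloids of 96 h of 64, and 23 and 19 at 120 h of 64. Of all tested genes, 12.4%, 23.1%, 22.2% and 24.9% were called higher in Hox-/- in the same order, beside the shares called lower given above. The mES counts of list genes were 4 lower and 2 higher under DESeq2.

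The list of TRH production and signalling had 9 tested genes in endoderm and gastruloids. In endoderm 1 was lower and 4 were higher in Hox-/- (median log2 0.18, against 0.00 over all tested genes), and at 120 h 4 were lower and 2 higher (median -0.40, against -0.02). At 96 h 0 were lower and 3 higher (median 0.08, against 0.03), and in mES cells 1 was lower and 1 higher of 8 tested (median 0.07, against 0.00). Pcsk1, a convertase that cuts the TRH precursor, was lower in Hox-/- endoderm (2.68 against 6.40 CPM, log2 -1.25, adjusted p 1.41e-05) and higher in Hox-/- gastruloids of 96 h (19.3 against 8.16 CPM, log2 1.28, adjusted p 7.54e-15). Qpct, which closes the amino end of the hormone, was higher in Hox-/- mES cells (log2 0.92, adjusted p 0.000284) and lower in gastruloids of 120 h (log2 -2.31, adjusted p 0.0013). Its homologue Qpctl was lower in mES cells and at 120 h (log2 -0.40 in both). Furin, another convertase, was higher in endoderm (145.7 against 100.8 CPM, log2 0.54, adjusted p 7.45e-05) and lower at 120 h (-0.68), and Cpe, which trims the cut ends, was higher in endoderm (0.92). Thra, the thyroid hormone receptor alpha gene, was higher in 3 cultures (log2 0.47 in endoderm, 0.30 at 96 h and 0.53 at 120 h). The hormone's receptor Trhr held at most 0.0243 CPM in any group.

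Beside lysosomal enzymes, the lysosomal glycan list holds the cytosolic Engase, the membrane proteins Lamp1 and Lamp2 and the regulator Tfeb. All 21 genes of the list were tested. In endoderm 11 were lower and 1 higher in Hox-/- (median log2 -0.19), and at 120 h 13 were lower and 0 higher (median -0.30), with 14 and 0 at an unadjusted p under 0.05 by edgeR and 13 and 0 called by DESeq2. In mES cells 2 were lower and 3 higher (median 0.06), and at 96 h 5 and 2 (median -0.01). Man2b1, the lysosomal alpha-mannosidase, was lower in endoderm (37.4 against 53.0 CPM, log2 -0.49, adjusted p 1.33e-05), at 96 h (-0.31) and at 120 h (-0.29), and in mES cells it was not called (-0.08, adjusted p 0.424). Engase, a cytosolic enzyme that releases N-glycans, was lower in mES cells (-0.39), at 96 h (-0.32) and at 120 h (-0.94). The sialidase Neu1 was lower in endoderm (-0.79) and at 120 h (-0.86). Gusb, beta-glucuronidase, was lower at 96 h (-0.52) and at 120 h (-0.38). Lamp2, a membrane protein of the lysosome, was higher at 96 h (0.53), and Lamp1 was lower in mES cells (-0.25) and endoderm (-0.15). The regulator Tfeb was higher in endoderm (0.66) and lower at 96 h (2.22 against 4.64 CPM, adjusted p 4.83e-05).

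**Figure D5:**
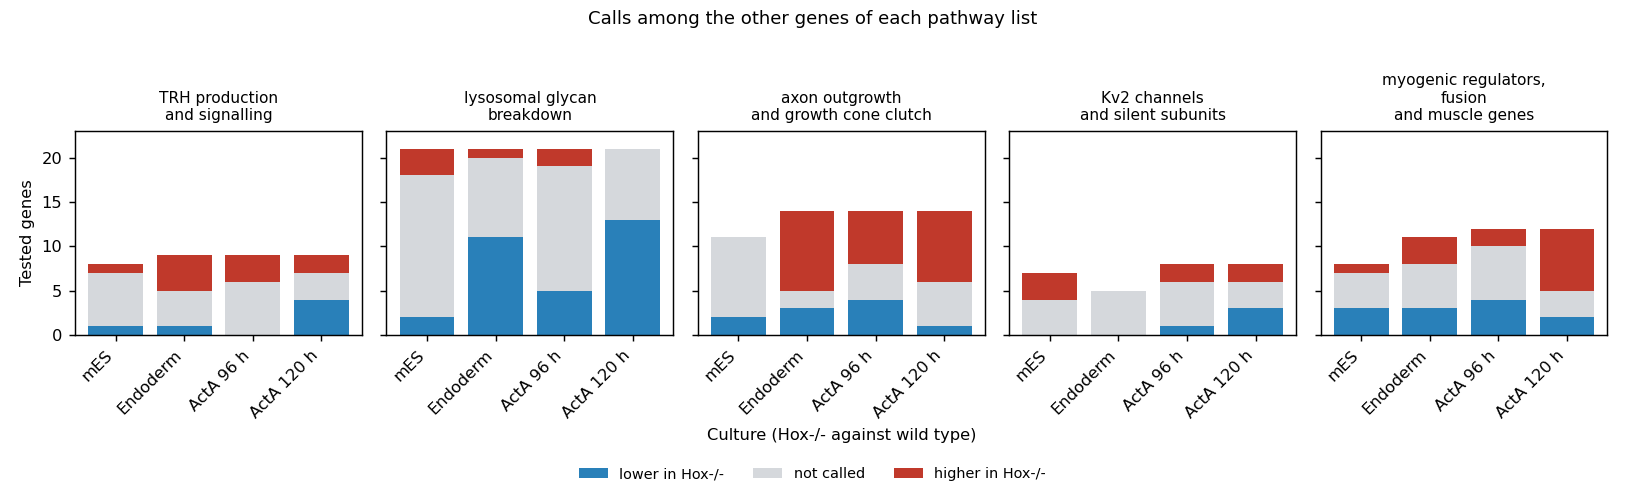
Number of tested genes (y axis) of each of the 5 pathway lists, members left out, that edgeR called lower (blue), higher (red) or neither (grey) in Hox-/- in the 4 cultures (x axis). Lower calls outnumber higher calls in the lysosomal list in endoderm (11 and 1) and at 120 h (13 and none), and the axonal list has more higher than lower calls there (9 and 3, 8 and 1).

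The axonal list of Shtn1 had 14 tested genes in endoderm, of which 3 were lower and 9 higher in Hox-/- (median log2 0.17). At 96 h 4 were lower and 6 higher (median 0.08), and at 120 h 1 and 8 (median 0.26), while in mES cells 2 of 11 were lower (median -0.18). L1cam, the adhesion partner of shootin1, was lower in endoderm (22.7 against 37.4 CPM, log2 -0.71, adjusted p 1.98e-06) and at 96 h (-0.74, adjusted p 0.0283) and higher at 120 h (1.26, adjusted p 5.24e-05). Ntn1, the guidance cue netrin-1, was lower in mES cells (-0.74), endoderm (-0.92) and at 96 h (32.0 against 129.4 CPM, log2 -1.97, adjusted p 1.96e-34) and higher at 120 h (0.30). Dpysl3, a growth cone protein, was lower at 96 h (-1.50) and 120 h (-0.87). Dpysl2, Gap43 and Ncam1, all genes of growing axons, were higher in endoderm (0.57, 0.98 and 0.49), at 96 h (0.31, 0.70 and 0.57) and at 120 h (0.75, 0.77 and 0.70). Dclk1 was higher in endoderm (1.68) and at 96 h (1.00).

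The list of Kv2 channels and silent subunits was thinly expressed, with 5 to 8 of its 14 genes tested. In mES cells 3 of 7 were higher in Hox-/-, at 96 h 1 of 8 was lower and 2 higher, and at 120 h 3 were lower and 2 higher. DESeq2 called 0 of them in mES cells and at 96 h. In endoderm edgeR called 0 of 5, with 1 higher at an unadjusted p under 0.05, and DESeq2 called 0. Amigo1, a partner protein of Kv2 channels, was lower at 120 h (3.10 against 8.89 CPM, log2 -1.41, adjusted p 9.32e-08). Vapb, which anchors Kv2 channels at junctions with the endoplasmic reticulum, was higher in mES cells (0.21), at 96 h (0.12) and at 120 h (0.16), and Vapa was higher at 120 h (0.40).

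The muscle and fusion list of Mymx had 8 to 12 of its 20 genes tested. In mES cells 3 were lower and 1 higher, in endoderm 3 and 3, at 96 h 4 and 2, and at 120 h 2 and 7 (medians -0.08, -0.22, -0.23 and 0.46). Dock1, a Rac activator used in myoblast fusion, was lower in mES cells (-0.61) and at 96 h (-0.46) and higher at 120 h (0.56). Its partner Elmo1 was higher in mES cells (0.53) and lower in endoderm (-0.79), at 96 h (-0.34) and at 120 h (-0.78). Pax3, a muscle and neural crest regulator, was higher in endoderm (0.83) and at 120 h (0.34), and Acta1, skeletal actin, was higher at 96 h (8.02 against 1.88 CPM, log2 2.15, adjusted p 1.71e-14). Mymk, the partner of Mymx in fusion, had no count in mES cells of either genotype, where Mymx was highest, and reached 1.93 CPM in Hox-/- and 0.381 CPM in wild-type endoderm.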

How the data were processed

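Per the labels' protocols, RNA was selected by poly(A) and the library kit keeps strand. The submitters' processing notes name cutadapt 1.16, STAR, Cufflinks 2.2.1 and the mm10 build. Counts, as deposited, are whole numbers per gene and library without normalization, and FPKM, as deposited, scale fragments by transcript length and library size and come with symbols and positions. The counting tool and its strand setting are not given in the sources used here. The 4 wild-type Activin A libraries stand in both gastruloid tables with identical values. Gene positions in the files were compared with GENCODE M21.

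The members, lists and tests were chosen with earlier results of these data known. Counts were fitted per table with edgeR 4.0.16's quasi-likelihood test (R 4.3.3; filterByExpr, TMM scaling), with 1 coefficient per group, and p-values were Benjamini-Hochberg adjusted over all tested genes, with calls under 0.05. Each gastruloid fit used all 4 groups of its table, and mES cells and endoderm were joined in 1 fit for the comparison between them. CPM are counts over the plain library total, given per library, and log2 differences are edgeR's. Intervals of log2 differences are 1.96 SE to either side. With so few libraries they are narrower than 95% intervals of the quasi-likelihood test would be. The floor was 3 counts per library. The design's checks on proteins were not run.

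Named pathway genes had calls of 1 sign in at least 3 genotype contrasts, or the smallest p of their list in a contrast and direction. A few genes that these rules picked are not reported here. Neighbours were the 2 nearest genes tested in all cultures on each side. Similar genes had the highest Pearson r of log2(CPM + 1) over the 10 group means, among autosomal genes with a mean of at least 5 CPM in some group. The genes ranked beside the members were called lower in all 4 genotype contrasts. Motifs were searched on both strands of 250 bases upstream of RefSeq start sites. The interaction of treatment and time, TATAA and TGACCT were chosen after seeing the data.

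Alternatives tried were a Wald test in DESeq2 1.42.0, RLE in place of TMM scaling, no filter beyond a count above 0, a block for the replicate number, limma 3.58.1 on log2(FPKM + 1) and log2(FPKM + 0.1), and each library left out in turn. They were also run on the genotype differences of the 5 genes, which kept their direction in each. FPKM fits were not made across the separate mES and endoderm tables. The edgeR fits were also run on simulated counts. Genes of low counts were left out and every gene had the same spread, so that run does not check genes near the floor.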

Additional observations from a re-analysis of the deposited data

Results flagged for a closer look

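The log2 change of Trh from 96 h to 120 h in Activin A gastruloids was 0.60 in wild type and -0.58 in Hox-/-, and both libraries of each group lay on the same side. The gene was chosen from the genotype differences at these 2 times, so the difference between these changes was not tested and the values are a description.

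In wild-type gastruloids the difference between Activin A and Chiron changed from 96 h to 120 h for 3 of the 5 genes by edgeR's interaction test, where 21.7% of all tested genes had a positive and 18% a negative interaction. It grew by 1.18 on the log2 scale for Trh and by 2.81 for Kcns3, and for Shtn1 the change was -1.19. The interaction test was added after the values were seen, and its Activin A libraries also stood in the choice of the genes. The Shtn1 call was lost under DESeq2 (adjusted p 0.0833), under limma on log2(FPKM + 1) and log2(FPKM + 0.1) (adjusted p 0.074 and 0.131), and without 1 of 3 libraries (adjusted p 0.0538 to 0.219).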

How the results depend on the processing

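Of 560 repeats of the tests on the 5 genes under the alternatives, 518 kept their side of the threshold, 39 lost a call and 3 gained one. No called difference changed direction, and 4 uncalled ones did: Manba between treatments at 96 h (0.24 without Chiron replicate 2), Shtn1 with time in Chiron gastruloids (-0.01 without replicate 2 of 120 h), and the Mymx interaction (-0.02 with limma on log2(FPKM + 0.1), -0.64 without Activin A replicate 1 of 120 h). The number of pathway genes called in mES cells (8 lower, 8 higher) was 4 and 2 with DESeq2, 0 and 1 with limma on log2(FPKM + 1), and 1 and 1 on log2(FPKM + 0.1), where 6 lower and 9 higher had an unadjusted p under 0.05 in both limma fits. Leaving out 1 library gave 5 to 10 lower and 3 to 6 higher. At 96 h (14 lower, 15 higher) the FPKM + 1 fit gave 9 higher and the FPKM + 0.1 fit 9 lower and 7 higher.

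Members called lower with Activin A at 96 h numbered 1, 0 in both limma fits (0 at an unadjusted p under 0.05), and 1 to 2 without 1 library. At 120 h they numbered 1, 0 under DESeq2 and both limma fits (1 unadjusted), and 0 to 1 without 1 library. The 3 lower at 120 h in Chiron gastruloids became 1 in both limma fits, and the 4 lower in wild-type Activin A gastruloids became 2 with FPKM + 0.1 and 2 to 4 without 1 library. The 1 gene higher in wild-type endoderm became 0 under DESeq2 (1 unadjusted) and 0 to 1 without 1 library. The 1 negative interaction became 0 under DESeq2 (1 unadjusted), 0 in both limma fits (1 unadjusted with FPKM + 1, 0 with FPKM + 0.1), and 0 to 2 without 1 library. The cause was not tested.

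Same-numbered replicates correlated between -0.272 and 0.276 after removal of group means, so the labels' numbers were not taken as a pairing. With the replicate number as a block, 11 pathway genes were lower and 9 higher in mES cells, the members lower in wild-type endoderm went from 4 to 3, and the other counts of members were as reported.

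Depth limits Mymx, Manba and Shtn1 at 120 h, where Hox-/- libraries held at most 8 counts of each. The Hox-/- share of Trh at 120 h was 4.59% of wild type with TMM-scaled totals, against 4.25%.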
